A study of Mus musculus with 3 samples.

Results

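The collagen genes were followed in CD11b+Gr1−F480+ macrophages sorted from the backskin of CD1 mice, where F480 is the label's spelling of the macrophage antigen encoded by Adgre1. Members were all genes with a symbol of the form Col, number, a, number, reached through the RefSeq transcript that the array names for a probe. Of 44 such symbols in the gene table, 42 had a probe, among 19752 named genes on the array. Col6a3 and Col12a1 had none and were not analysed here. The study isolated the cells by FACS in telogen, the resting phase of the hair follicle cycle, which it divided into an early (Te), a mid (Tm), and a late stage (Tl). The sample labels give these mice as postnatal day 42, 55, and 69, and the study's own text gives a slightly later day for Te. For each stage, RNA of 3 littermates was combined, taken through whole transcriptome amplification, and measured in 1 color (Cy3) on 1 array. No label names a treatment or a transgene. With 1 array per stage there is no replicate error for a difference between stages, and no test was made.

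Collagens are triple-helical proteins of the extracellular matrix. The fibrillar collagens form the tensile fibers of the dermis and are made mainly by fibroblasts, whereas type IV collagens form the sheet of basement membranes. Col17a1 encodes the transmembrane collagen of hemidesmosomes, and Col7a1 the collagen of the anchoring fibrils that tie the epidermal basement membrane to the dermis, and both are known as products of basal keratinocytes. The remaining genes encode collagens that decorate fibrils (FACIT), type VI microfibrils, multiplexins of basement membrane zones, short chain collagens, and other transmembrane collagens.

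All levels are log2 of the background-corrected signal relative to the 75th percentile of the array, and all changes are differences of these log2 levels from the Te array. Levels of different genes come from different probes and are not ranked against each other, and sums over a list are compared between arrays only. Repeated spots of a probe gave a difference between the Tl and Te arrays an SD of 0.17, and between the Tm and Te arrays an SD of 0.16. This is the error of the spots alone and leaves out mice, sorting, and amplification, and 60 of the 61 collagen probes had 1 spot. A probe that passed the background call on 1 array of a pair but not on the other gives a lower bound ("at least"). The dim side was then set to the lowest passing signal of its array, or to its own signal where that was higher. The share of probes well above background ranged from 59.6% to 71.4%. The arrays of Tm and Tl are assigned in opposite ways in the scanner files and in the value table of the authors. They are named here as the scanner files are deposited, and values of both are given. Both changes use the same Te array. In RNA of a sorted population, fewer cells of a type and less RNA per cell cannot be told apart.

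Of the 42 collagen genes, 31 were well above background on at least 1 array, 24 on all 3 arrays, and 11 on none. The latter were Col2a1, Col4a3, Col6a4, Col6a5, Col6a6, Col9a3, Col11a1, Col19a1, Col22a1, Col24a1, and Col26a1. The number well above background was 26 on the Te array, 24 on the Tm array, and 31 on the Tl array. Of all probes, 71.4% were so on the Te array, 59.6% on the Tm array, and 68.7% on the Tl array. The lowest level that passed the call was −4.44, −4.04, and −5.01 in the same order, so the Tl array reached lower levels. The part of this difference in the genes that passed on the Tl array only was not tested.

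**Figure D1:**
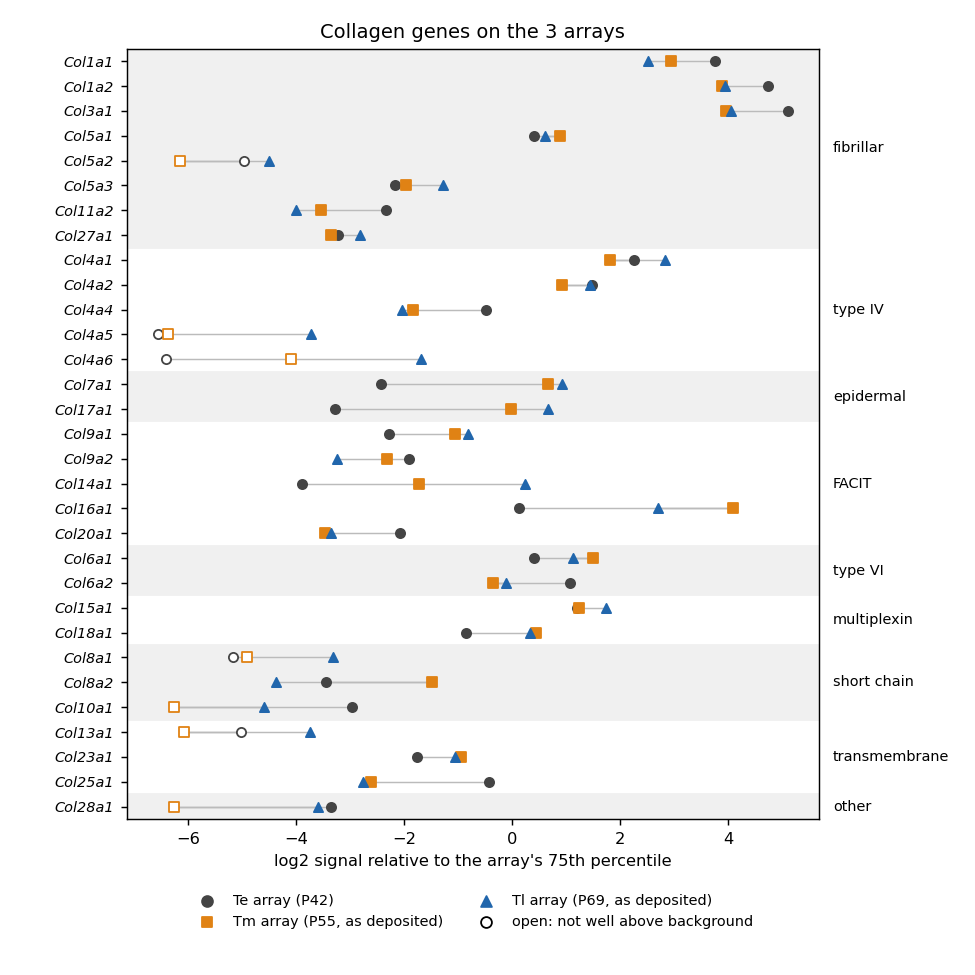
Log2 signal relative to the 75th percentile of the array (x axis) of the 31 collagen genes well above background on at least 1 array (y axis, by class). Each symbol is 1 array, open where the gene was not well above background. Col17a1 and Col7a1 lie lowest on the Te array, whereas Col1a1, Col1a2, and Col3a1 lie highest there with this scaling (without scaling, Col1a2 and Col3a1 are higher on the Tl array by 0.37 and 0.12).

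The epidermal and the major fibrillar collagens differed from the Te array in opposite directions, except that without scaling between the arrays Col1a2 and Col3a1 were higher on the Tl array by 0.37 and 0.12 (log2). On the Tl array Col17a1 and Col7a1 were 15.2-fold and 10.1-fold higher than on the Te array, and on the Tm array 9.51-fold and 8.44-fold higher. Col1a1, the main chain of the type I fibril, was 2.36-fold lower on the Tl array and 1.76-fold lower on the Tm array. Col3a1, the type III chain, was 2.07-fold and 2.22-fold lower.

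The 250 bases upstream of the annotated start are shown for Col17a1, Col7a1, and Col16a1, which were higher on both later arrays, and for Col1a2 and Col3a1, which were lower with the scaling used. They are RefSeq sequences of the mouse build GRCm38.p6, written 5′ to 3′ on the strand of the gene. Capitals mark the motif TATAAA, the motif CCAAT, and the motif GGGCGG, each searched on both strands. CCAAT on the reverse strand therefore appears as ATTGG.
Col17a1 (chr19:47692043-47692292, minus strand): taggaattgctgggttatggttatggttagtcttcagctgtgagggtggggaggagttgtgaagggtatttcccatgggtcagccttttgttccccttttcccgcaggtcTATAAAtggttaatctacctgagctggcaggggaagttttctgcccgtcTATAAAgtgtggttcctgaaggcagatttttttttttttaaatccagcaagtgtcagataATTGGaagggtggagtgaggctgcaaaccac
Col7a1 (chr9:108953336-108953585, plus strand): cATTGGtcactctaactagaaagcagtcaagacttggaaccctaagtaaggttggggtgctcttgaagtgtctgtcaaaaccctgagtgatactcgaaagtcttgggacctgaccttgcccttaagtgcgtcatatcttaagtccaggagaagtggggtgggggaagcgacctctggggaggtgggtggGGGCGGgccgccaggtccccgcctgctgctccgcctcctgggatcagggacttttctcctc
Col16a1 (chr4:130047590-130047839, plus strand): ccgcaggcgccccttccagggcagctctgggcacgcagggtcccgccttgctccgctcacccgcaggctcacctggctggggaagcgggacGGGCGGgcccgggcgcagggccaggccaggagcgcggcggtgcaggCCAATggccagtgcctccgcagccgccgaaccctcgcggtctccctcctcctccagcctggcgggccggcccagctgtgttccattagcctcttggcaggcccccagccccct
Col1a2 (chr6:4505368-4505617, plus strand): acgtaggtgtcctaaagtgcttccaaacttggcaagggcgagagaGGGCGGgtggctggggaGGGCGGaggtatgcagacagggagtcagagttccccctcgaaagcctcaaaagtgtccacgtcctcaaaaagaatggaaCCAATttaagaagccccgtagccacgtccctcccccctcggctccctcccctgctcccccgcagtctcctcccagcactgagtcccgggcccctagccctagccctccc
Col3a1 (chr1:45311288-45311537, plus strand): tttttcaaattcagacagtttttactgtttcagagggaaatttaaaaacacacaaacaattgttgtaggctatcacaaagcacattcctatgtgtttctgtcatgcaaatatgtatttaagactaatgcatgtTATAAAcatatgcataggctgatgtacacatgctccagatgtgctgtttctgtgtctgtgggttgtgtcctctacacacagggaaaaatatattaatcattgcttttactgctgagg

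The Col17a1 sequence holds TATAAA at 140 to 135 and at 91 to 86 bases before the start, and CCAAT on the reverse strand at 31 to 27. The Col7a1 sequence holds no TATAAA but GGGCGG at 61 to 56 and CCAAT on the reverse strand at 249 to 245. The Col16a1 sequence holds GGGCGG at 159 to 154 and CCAAT at 113 to 109. The Col3a1 sequence holds TATAAA at 117 to 112 and no GGGCGG, whereas Col1a2 holds GGGCGG at 205 to 200 and at 188 to 183 and CCAAT at 109 to 105. Among the 34 collagen genes with an entry, 5 held TATAAA (14.7%), 12 held CCAAT (35.3%), and 21 held GGGCGG (61.8%). Over all 32851 upstream sequences of this length these shares were 12.4%, 33.8%, and 32.7%. Col1a1, Col2a1, Col4a3, Col5a2, Col9a3, Col14a1, Col22a1, and Col26a1 had no entry.

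Among the epidermal collagens, Col17a1 had a level of −3.27 on the Te array, −0.02 on the Tm array, and 0.66 on the Tl array. The corresponding levels of Col7a1 were −2.42, 0.66, and 0.92. Both genes were thus well above background at Te and higher on both later arrays, with differences between the Tl and Tm arrays of 0.68 and 0.26. On the Tl array the log2 change was 3.93 for Col17a1 and 3.34 for Col7a1, and on the Tm array 3.25 and 3.08. Of 14141 genes measured on both arrays, 21 had a larger increase than Col17a1 on the Tl array and 73 a larger increase than Col7a1. On the Tm array these numbers were 153 and 197 of 13217. Over all alternatives tried, the log2 change of Col17a1 ranged from 2.83 to 5.09 on the Tl array and from 2.18 to 3.93 on the Tm array.

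Genes that encode partners of these collagens at the hemidesmosome were examined next. Of 8 such genes, 4 were at least 2-fold higher and 0 lower on the Tl array, with a median log2 change of 1.14, and on the Tm array 4 were higher and 0 lower, with a median of 1.22. Of all genes with a value, 22.6% were at least 2-fold higher and 20.7% lower on the Tl array, and 29.4% and 16.9% on the Tm array. Over all genes measured on both arrays the median was 0.21 on the Tl array and 0.39 on the Tm array. Lamb3, which encodes a chain of the laminin that links hemidesmosomes to the basement membrane, had log2 changes of 3.14 on the Tl array and 2.98 on the Tm array. Itgb4, the integrin chain specific to hemidesmosomes, had changes of 2.48 and 3.06. Its partner chain Itga6 had changes of 0.06 and 0.01, both within the spot error.

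Most keratinocyte markers differed in the same direction, with Trp63 (−0.68 on the Tl array) as the exception. All 12 were well above background on both later arrays and 11 on the Te array, where Cdh3 was not. Of the 12 markers, 10 were at least 2-fold higher and 0 lower on the Tl array, with a median log2 change of 3.21, and 11 were higher and 0 lower on the Tm array, with a median of 3.29. Krt5 and Krt14, the keratins of basal keratinocytes, had changes of 3.32 and 2.88 on the Tl array and of 3.97 and 3.13 on the Tm array. The signals of the list summed to a level of 8.09 on the Te array, 8.63 on the Tm array, and 8.05 on the Tl array. Such a sum follows its brightest probe, and without Trp63, which was left out after its values were seen, the levels were 3.45, 7.06, and 6.67. All 11 macrophage markers on the array were well above background on every array, with median changes of −0.42 and −0.44 and summed levels of 9.82 at Te, 9.60 on the Tm array, and 9.05 on the Tl array. Of these 11, 0 were at least 2-fold higher and 3 lower on the Tl array, and 0 higher and 2 lower on the Tm array. Itgam, which encodes CD11b, had changes of −1.10 on the Tl array and −0.23 on the Tm array. Cd163 had −1.55 and −1.19, and C1qb −1.18 and −1.07. For both marker lists, the shares over all genes were 22.6% higher and 20.7% lower on the Tl array, and 29.4% and 16.9% on the Tm array. The part of keratinocyte RNA in the changes of Col17a1 and Col7a1 was not tested.

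For the fibrillar collagens the median log2 change was −0.80 (Tl array) and −0.82 (Tm array), over the 7 of 11 genes measured on both arrays of each comparison. Without scaling between the arrays the median on the Tl array was 0.37. Of the 7 fibrillar genes with a value, 0 were at least 2-fold higher on either array, and 3 were lower on the Tl array and 2 on the Tm array. The other fibrillar genes had no value in either comparison. Over all genes, as given above, 22.6% were higher and 20.7% lower on the Tl array, and 29.4% and 16.9% on the Tm array. Relative to the median of all measured genes, which a scaling by 1 factor per array cannot change, the fibrillar median lay at −1.01 on the Tl array and −1.21 on the Tm array. It lay at −1.06 and −0.96 with quantile normalization and at −0.83 and −0.87 with normexp background correction.

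Col1a1 had levels of 3.76 on the Te array, 2.94 on the Tm array, and 2.52 on the Tl array. Col1a2, the second chain of type I collagen, had levels of 4.73, 3.89, and 3.94. Col3a1 had levels of 5.10, 3.96, and 4.06. With this scaling all were highest on the Te array, with changes of −1.24 to −0.80 on the later arrays, whereas without scaling Col1a2 and Col3a1 were higher on the Tl array. Without scaling the change of Col1a1 on the Tl array was −0.08, within the spot error. Relative to the median of all measured genes, Col1a1 lay at −1.45, Col1a2 at −1.01, and Col3a1 at −1.26 on the Tl array.

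The other fibrillar genes did not share one direction. Col5a1, a chain of the type V collagen that nucleates type I fibrils, had log2 changes of 0.21 on the Tl array and 0.48 on the Tm array. Col5a3, another type V chain, had changes of 0.89 and 0.19. Col11a2, known from cartilage, was lower on both later arrays, with levels of −2.33 on the Te array, −3.54 on the Tm array, and −4.0 on the Tl array. Col27a1, also known from cartilage, had changes of 0.40 and −0.14. Col5a2 was well above background on the Tl array only, and no fold is given. Of 5 chondrocyte markers, 2 were at least 2-fold higher and 1 lower on each later array. Over all genes 22.6% were higher and 20.7% lower on the Tl array, and 29.4% and 16.9% on the Tm array. The signals of the 5 markers summed to −0.01 at Te, 3.46 on the Tm array, and 2.44 on the Tl array. Among them, Matn1 was dim on all arrays, and Acan had changes of 0.11 on the Tl array and −0.98 on the Tm array. Comp, which fibroblasts also make, had changes of 3.97 and 5.07, and Sox9 was at least 1.57 and 1.30 higher. Hapln1, which stabilizes cartilage proteoglycan, had a change of −3.07 on the Tl array, and its bound on the Tm array was −2.60.

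Among fibroblast markers, 4 of 12 were at least 2-fold higher and 2 lower on the Tl array, where 22.6% and 20.7% of all genes were. On the Tm array 2 were higher and 3 lower, where 29.4% and 16.9% of all genes were. The median log2 changes of the markers were 0.25 and −0.69. Their signals summed to levels of 5.06 on the Te array, 4.29 on the Tm array, and 4.65 on the Tl array. Dcn, a proteoglycan that binds collagen fibrils, had changes of −1.06 on the Tl array and −1.88 on the Tm array, and Pi16 of −1.41 and −1.13. Thy1 had changes of 1.01 and 1.42, and Fap of at least 5.37 and 4.71. The markers thus ran both ways, and Pdgfra, a defining receptor of fibroblasts, was well above background on the Tl array only. The part of fibroblast RNA in the changes of the fibrillar collagens was not tested.

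**Figure D2:**
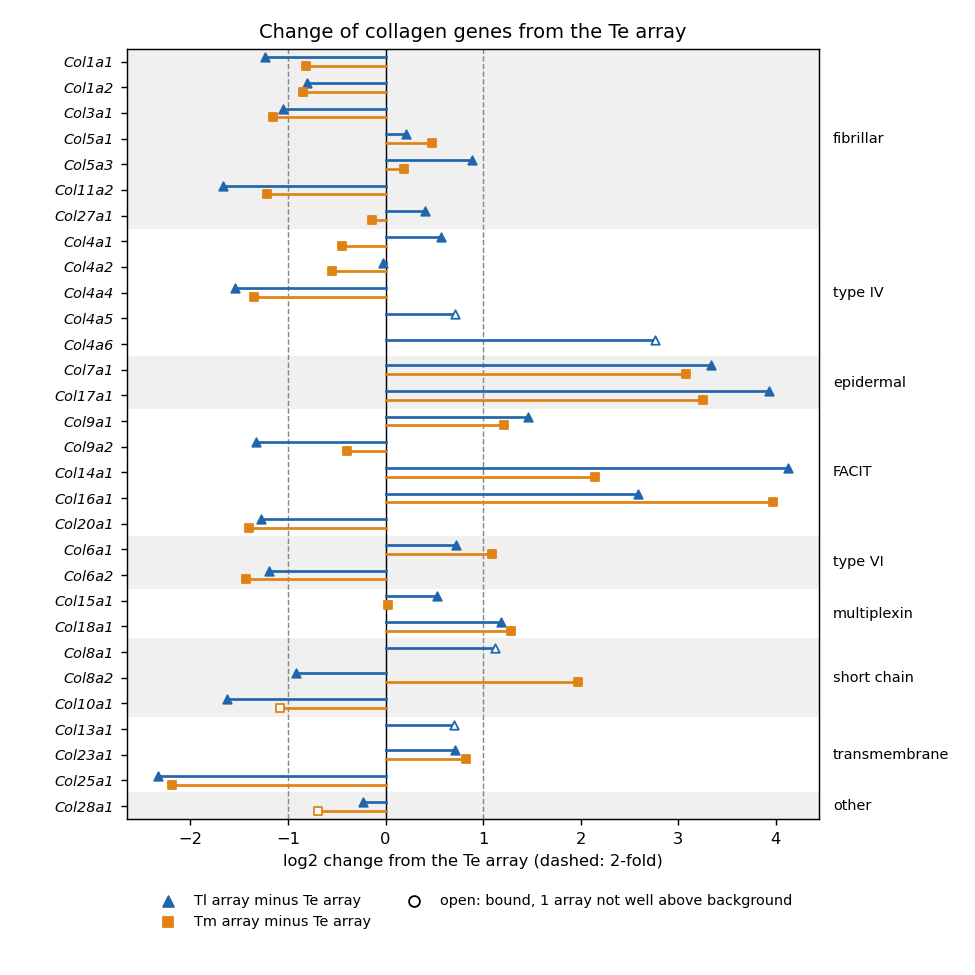
Log2 change from the Te array (x axis, dashed lines at 2-fold) of the 30 collagen genes with a value, by class, on the arrays deposited as Tl (triangles) and Tm (squares). Open symbols are lower bounds. Col17a1, Col7a1, Col14a1, and Col16a1 lie at 2.15 or above on both arrays, and Col25a1 at −2.19 or below, while Col1a2 and Col3a1 lie below 0 on both with this scaling but above 0 on the Tl array without scaling.

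The type IV collagens had no common change. Their median log2 change was −0.03 on the Tl array and −0.55 on the Tm array, over the 3 of 6 genes measured on both arrays. Other settings gave medians of −0.89 to 1.13 on the Tl array, and 0.01 on the Tm array when each array was scaled to its median. Col4a1 and Col4a2, which form the most widespread type IV network and start 21 bases apart on opposite strands, had levels of 2.25 and 1.48 on the Te array. On the Tm array the levels were 1.81 and 0.93, and on the Tl array 2.83 and 1.45. Both were thus lowest on the Tm array, and from Te to Tl Col4a1 changed by 0.57 and Col4a2 by −0.03.

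Col4a4, a chain of the network best known from the kidney glomerulus, was lower on both later arrays, with levels of −0.49 at Te, −1.84 on the Tm array, and −2.04 on the Tl array. Its other probes were also lower, with log2 changes on the Tl array of −2.27 and −0.98. Col4a5 and Col4a6, whose chains occur together in the epidermal basement membrane, were well above background on the Tl array only, with levels of −3.73 and −1.68. Col4a5 was at least 0.71 and Col4a6 at least 2.76 higher (log2) than at Te. A second probe of Col4a6 went the opposite way, from −1.67 at Te to not well above background on both later arrays, and was at least 3.34 lower (log2) on the Tl array. The direction of Col4a6 therefore depends on the probe, and it enters the counts by its brighter probe.

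Basement membrane partners of type IV collagen, which are laminin chains, nidogens, perlecan (Hspg2), and agrin (Agrn), had median log2 changes of −0.15 on the Tl array and −0.38 on the Tm array. Of 10 genes, 2 were at least 2-fold higher and 0 lower on the Tl array, and 0 were higher and 2 lower on the Tm array. For this count and those below, the shares over all genes were 22.6% higher and 20.7% lower on the Tl array, and 29.4% and 16.9% on the Tm array. Nid1, which links laminin to type IV collagen, had changes of −0.65 and −1.60, and Lamc1 of 1.66 and 0.12. No gene of the list was at least 2-fold changed the same way on both later arrays. Endothelial markers, whose cells lie on type IV collagen, had a median of −0.11 on the Tl array and −1.02 on the Tm array, with 1 of 9 at least 2-fold higher and 1 lower on the Tl array and 0 higher and 5 lower on the Tm array. The markers were well above background on all arrays and summed to 5.43, 4.89, and 5.27 at Te, Tm, and Tl. Mural markers had medians of 1.0 and 0.42, with 4 of 8 at least 2-fold higher and 0 lower on the Tl array and 3 higher and 1 lower on the Tm array. They were also well above background on all arrays, and summed to 3.08, 3.95, and 4.62. Their part in the values of type IV collagens was not tested.

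The classes were then contrasted within each comparison, with values as a description of these arrays. On the Tl array the mean log2 change of the epidermal collagens was 3.63, which lay 4.43 above the fibrillar median and 3.66 above the type IV median. On the Tm array the epidermal mean was 3.16, and lay 3.98 above the fibrillar and 3.71 above the type IV median. Type IV lay 0.77 above the fibrillar median on the Tl array and 0.27 above it on the Tm array. The order on the Tm array depended on the processing. With quantile normalization the type IV median there was −0.83 and the fibrillar median −0.59. These medians were −0.51 and −0.59 with normexp background correction, and −0.13 and −0.15 without a filter on dim probes. The fold of Col17a1 exceeded that of Col3a1 by a ratio of 31.4 on the Tl array and 21.1 on the Tm array. Such a ratio does not depend on a scaling by 1 factor per array, but was 12.6 and 9.65 with normexp background correction and 41.6 on both arrays with quantile normalization.

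**Figure D3:**
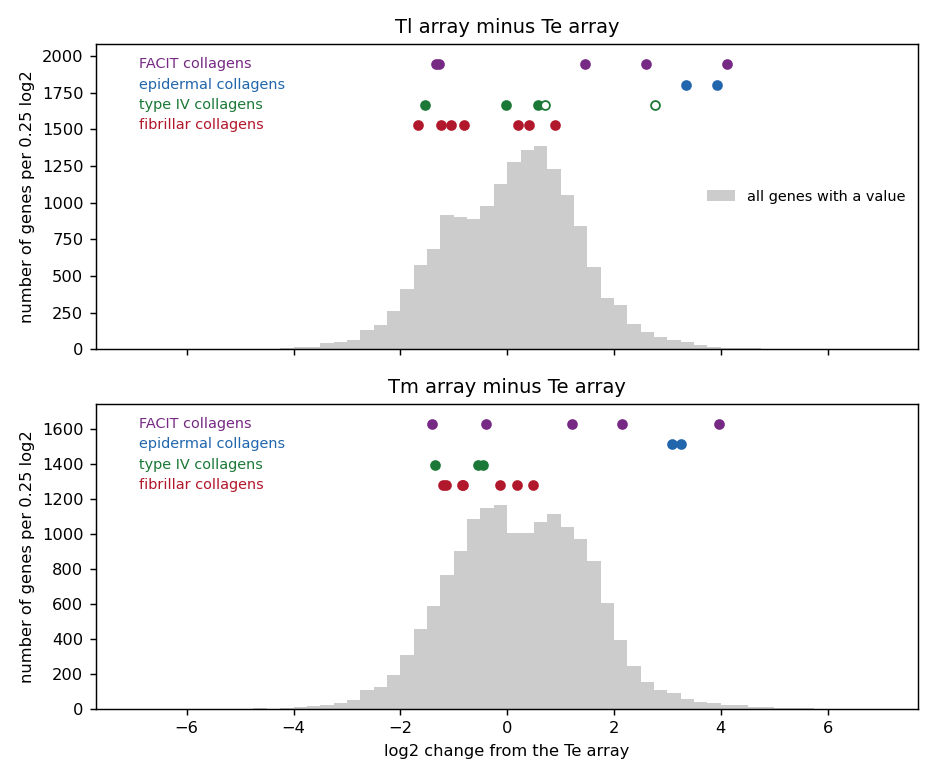
Number of genes (y axis) in bins of the log2 change from the Te array (x axis) on the array deposited as Tl (top) and as Tm (bottom), for all genes with a value (grey). Points above the bars are single collagen genes, open where the change is a bound. The epidermal collagens lie at 3.08 or above, in the right tail, and the fibrillar collagens between −1.67 and 0.89 with this scaling, which without scaling puts their median on the Tl array at 0.37.

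The FACIT collagens spread from the highest to some of the lower values of the family. Col14a1, which binds type I fibrils, had levels of −3.88 on the Te array, −1.73 on the Tm array, and 0.24 on the Tl array, and was 17.4-fold higher on the Tl array and 4.44-fold higher on the Tm array. Only 15 of 14141 measured genes had a larger increase on the Tl array, and 757 of 13217 on the Tm array. The level at Te was near the lowest that passed the background call on that array, −4.44. With normexp background correction the log2 change of Col14a1 was 2.55 on the Tl array and 0.99 on the Tm array. Its second probe, not well above background at Te, gave lower bounds of 0.44 and 0.97 on the log2 scale.

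Col16a1, a fibril-associated collagen of the skin, had levels of 0.12 on the Te array, 4.09 on the Tm array, and 2.71 on the Tl array. It was 15.7-fold higher on the Tm array and 6.02-fold higher on the Tl array, and 59 of 13217 genes exceeded its increase on the Tm array. Of 2 further probes, one had log2 changes of 2.40 on the Tl array and 3.75 on the Tm array, and the other of −0.76 and −1.27. Col16a1 thus had 2 probes with nearly the same changes and another in the opposite direction. Between the later arrays, Col14a1 was 1.97 higher on the Tl than on the Tm array by its brighter probe, while its second probe differed by −0.53. Col16a1 was 1.38 lower on the Tl array.

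Col9a1, a chain of the type IX collagen of cartilage, had changes of 1.46 on the Tl array and 1.21 on the Tm array, but its other probe had 0.49 and −0.59. Col9a2, its partner chain, had changes of −1.33 and −0.40. Col20a1 was lower on both later arrays, with changes of −1.28 and −1.40. The median of the 5 measured FACIT genes of 8 was 1.46 on the Tl array and 1.21 on the Tm array, with 3 at least 2-fold higher on each and 2 and 1 lower, respectively, beside 22.6% of all genes higher and 20.7% lower on the Tl array and 29.4% and 16.9% on the Tm array.

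Type VI collagen forms beaded microfibrils from chains of Col6a1, Col6a2, and a further chain. Col6a1 had levels of 0.40 on the Te array, 1.49 on the Tm array, and 1.12 on the Tl array. Col6a2 had levels of 1.08, −0.35, and −0.11. Although their products assemble together, Col6a1 was higher on both later arrays, by 1.09 on the Tm and 0.72 on the Tl array, and Col6a2 was lower by 1.43 and 1.19. Neither gene changed its direction under any alternative, with Col6a1 between 0.52 and 1.89 and Col6a2 between −1.43 and −0.03 on the Tl array.

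The multiplexin Col18a1, the source of endostatin at basement membranes, had levels of −0.85 on the Te array, 0.44 on the Tm array, and 0.34 on the Tl array, and its second probe had similar changes of 1.61 on the Tl array and 1.38 on the Tm array. Col15a1, the other multiplexin, had changes of 0.53 and 0.03. A second probe of Col15a1 had 0.45 and −0.16, while another was lower on both arrays by 2.44 and 2.55.

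Among the transmembrane collagens, Col25a1, which is known from neurons, was lower on both later arrays. Its levels were −0.42 on the Te array, −2.61 on the Tm array, and −2.75 on the Tl array, or 5.03-fold lower on the Tl and 4.55-fold lower on the Tm array. Of 14141 genes measured, 206 had a larger decrease on the Tl array, and 216 of 13217 on the Tm array. These values are from its brightest probe. A second probe of Col25a1, with a level of −3.99 at Te, was not well above background on the later arrays. It was at least 0.94 lower (log2) on the Tl array and at least 0.06 lower on the Tm array. A further probe was dim on all arrays. Col23a1 had changes of 0.71 on the Tl array and 0.82 on the Tm array by its brightest probe. A second probe had −0.30 and 0.45, so the direction on the Tl array depends on the probe, and a further probe was dim on all arrays. Col13a1 was well above background on the Tl array only, at least 0.70 higher (log2) than at Te.

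Of the short chain collagens, Col10a1, which marks hypertrophic cartilage, had a level of −2.96 at Te, was not well above background on the Tm array, and had a level of −4.59 on the Tl array. Col8a1, of the network-forming type VIII collagen, was well above background on the Tl array only and at least 1.12 higher (log2) there. Col8a2, its partner chain, had levels of −3.45 on the Te array, −1.48 on the Tm array, and −4.37 on the Tl array. Col8a2 was thus highest on the Tm array. Col28a1 had a change of −0.23 on the Tl array and was at least 0.69 lower (log2) on the Tm array. Schwann cell markers, cells near which type XXVIII collagen lies, had median changes of 0.08 and 0.39, with 1 of 6 at least 2-fold higher and 1 lower on each array. The shares over all genes were 22.6% higher and 20.7% lower on the Tl array, and 29.4% and 16.9% on the Tm array.

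Counted over the family, 8 of 30 collagen genes with a value were at least 2-fold higher on the Tl array (26.7%), where 22.6% of all genes with a value were. A further 9 of 30 were at least 2-fold lower (30.0%), where 20.7% of all genes were. On the Tm array 8 of 26 were higher (30.8%), where 29.4% of all genes were, and 7 of 26 were lower (26.9%), where 16.9% were. The shares of higher genes were thus close to those over all genes. Among the higher genes on the Tl array 2 were bounds, Col8a1 and Col4a6, and a second probe of Col4a6 went the opposite way. The split of 8 higher and 9 lower depended on the scaling and was 14 and 5 with quantile normalization, 15 and 4 with each array scaled to its median, and 19 and 1 without scaling. On the Tm array the split of 8 and 7 was 10 and 1 with each array scaled to its median, 9 and 4 without scaling, and 5 and 10 with the 75th percentile over probes well above background on all arrays.

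At the 10-fold threshold that the methods of the study give, 3 of 30 collagen genes were higher on the Tl array (Col14a1, Col17a1, and Col7a1), where 0.693% of all genes were, and 1 of 26 on the Tm array (Col16a1), where 1.16% of all genes were. No collagen gene was at least 10-fold lower, where 0.482% of all genes were on the Tl array and 0.335% on the Tm array. With normexp background correction none of the 3 genes reached 10-fold on the Tl array, with log2 changes of 2.55 (Col14a1), 2.83 (Col17a1), and 2.49 (Col7a1), whereas Col16a1 did on the Tm array at 3.88. Col7a1 also missed it with the 75th percentile over probes well above background on all arrays, at 3.13, and Col14a1 with the median over its probes, at 2.28. Col17a1 and Col7a1 also reached 10-fold on the Tm array with quantile normalization (3.79 and 3.40), with each array scaled to its median (3.81 and 3.63), and without scaling (3.51 and 3.34). In the value table of the authors, whose Tm and Tl columns are exchanged, these 3 genes reached it in the Tm column and Col16a1 in the Tl column. A total of 6 genes that were at least 2-fold higher on the Tl array were so on the Tm array too, namely Col17a1, Col7a1, Col14a1, Col16a1, Col9a1, and Col18a1. At least 2-fold lower on both were Col3a1, Col11a2, Col4a4, Col6a2, Col20a1, Col10a1, and Col25a1. Of 15593 genes with both values, 16.9% were at least 2-fold higher and 11.4% lower on both. Between the later arrays, 3 of 29 collagen genes were at least 2-fold higher on the Tl array and 2 lower, where 8.12% and 11.3% of all genes were. The median over the collagen genes measured was 0.09 on the Tl array and −0.06 on the Tm array, below the 0.21 and 0.39 of all genes.

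**Figure D4:**
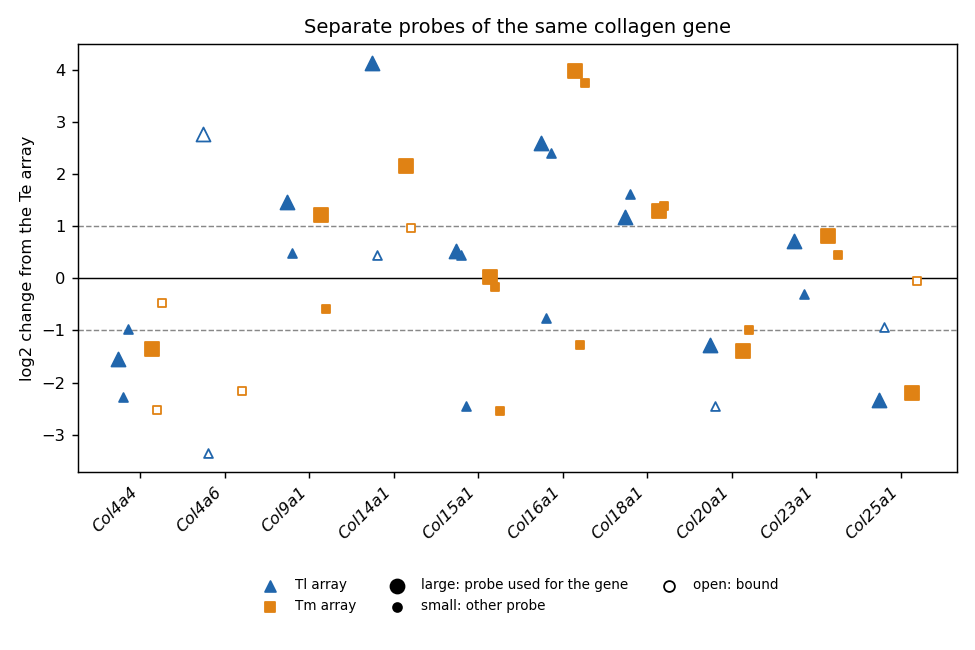
Log2 change from the Te array (y axis, dashed lines at 2-fold) of each probe of the 10 collagen genes (x axis) with a value for more than 1 probe, on the arrays deposited as Tl (triangles) and Tm (squares). Large symbols are the probe used for the gene, and open symbols are bounds. For Col18a1 and Col4a4 all probes lie on the same side of 0, whereas Col16a1, Col15a1, and Col4a6 have probes on both sides.

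Among the collagen genes, 14 had more than 1 probe. On the Tl array 6 of 10 genes with values for at least 2 probes had all probes in the same direction, and 4 had not (Col4a6, Col15a1, Col16a1, and Col23a1). On the Tm array 6 of 9 had, and 3 had not (Col9a1, Col15a1, and Col16a1). Col17a1, Col7a1, Col1a1, Col1a2, and Col3a1 are not among the genes with values for more than 1 probe.

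Enzymes and chaperones that act on collagen chains ran both ways, from −1.76 to 1.40 on the Tl array and from −1.65 to 1.54 on the Tm array. Of 30 genes, 2 were at least 2-fold higher and 4 lower on the Tl array, and 4 were higher and 2 lower on the Tm array, with median log2 changes of 0.07 and −0.12, beside the shares over all genes given above. P3h1, a prolyl 3-hydroxylase of fibrillar chains, was the only one at least 2-fold changed in the same direction on both, with changes of −1.11 on the Tl and −1.43 on the Tm array. P4ha3, a catalytic subunit of prolyl 4-hydroxylase, had −1.76 and −0.85, while Ppib, a chaperone in the P3h1 complex, had 0.75 and 1.30. Lox, which cross-links fibrils, had 1.40 and −0.30, and Loxl2, of the same enzyme family, had 0.18 and −1.65. Sparc, which binds collagen in the matrix, had −1.20 and −0.76.

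Of 8 collagen receptor genes, 0 were at least 2-fold higher and 2 lower on the Tl array, where 22.6% and 20.7% of all genes were. On the Tm array 1 was higher and 3 lower, where 29.4% and 16.9% of all genes were. The median changes of these receptor genes were −0.02 and −1.23. Itga1, the integrin chain that with Itgb1 binds type IV and fibrillar collagens, had levels of 1.10 on the Te array, −0.68 on the Tm array, and −1.23 on the Tl array, and was the only one at least 2-fold lower on both. Ddr1, the discoidin receptor of epithelia, had changes of 0.96 on the Tl and 1.74 on the Tm array, whereas Ddr2, the discoidin receptor of mesenchymal cells, had −0.61 and −1.56. Lair1, an inhibitory collagen receptor of leukocytes, had −0.34 and −0.92. Itga2 had −2.52 on the Tl array, and its spot on the Tm array was left out as an outlier.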

How the data were processed

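Macrophage RNA at Te, Tm, and Tl was measured on 1 Agilent array each, all on 1 slide. The authors quantified the images with Feature Extraction 10.7 and deposited the linear intensity per spot, background-corrected and not normalized between arrays, with calls for outlier spots and for signals well above background. They also deposited a table of log2 values for 36409 probes, centered per probe, with the normalization not given in the sources used here. Its Tm column matches the scanner file of Tl, and its Tl column that of Tm (99.9% and 99.8% of probes within 0.05 of the offset, log2).

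From the deposited intensities, outlier spots (162 to 281 per array) were left out, spots of a probe were averaged, and log2 values were expressed relative to each array's 75th percentile. Detection required 0.5 of the spots well above background. The 75th percentile was 16.5 to 32.3 times the lowest signal well above background, and no spot was saturated. Probes were named through RefSeq accessions (26056 of 55681 matched), and a gene was given by its brightest probe. All collagen genes above background are named, as are list genes 2-fold changed in the same direction on both later arrays or singled out after their values were seen. For 1 list gene no single value is reported here. Medians use genes measured on both arrays, and counts also use bounds. The members and lists (collagen processing, receptors, basement membrane and hemidesmosome partners, and markers of fibroblasts, keratinocytes, macrophages, endothelial, mural, Schwann, and cartilage cells, melanocytes, and adipocytes) were chosen with earlier results of these data known. Python 3.11.15, pandas 2.3.3, numpy 2.4.6, and limma 3.58.1 in R 4.3.3 were used, and the steps were tested on data simulated from the Te array. The simulation changed bright probes only and kept the same background calls on every array. It therefore did not cover bounds or changes of dim probes. The alternatives were other scalings, normexp (offset 50), the log2 table, other filters and probe rules, a 5-fold threshold, and exchange of the Tm and Tl arrays, which was added after the data were seen.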

Additional observations from a re-analysis of the deposited data

Results flagged for a closer look

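Col4a1 and Col8a2 had changes from the Te array that went in opposite directions on the later arrays by more than the spot error. The log2 change of Col4a1 was 0.57 for the Tl array and −0.45 for the Tm array, as deposited. That of Col8a2 was −0.92 and 1.97. The opposite directions depended on the scaling. With each array scaled to its median, Col4a1 had 1.10 for the Tl array and 0.11 for the Tm array. Without scaling, Col8a2 had 0.25 and 2.24. Col8a2 had low levels of −3.45 on the Te array and −4.37 on the Tl array, and its second probe was dim on all arrays. With 1 array per stage the difference was not tested for either gene, and the values exchange places if the arrays are assigned as in the value table of the authors.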

How the results depend on the processing

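No paired analysis was possible because each stage has 1 array and the labels give no replicate numbers. In each pair of values below, the array deposited as Tl comes first and then that deposited as Tm, all on the log2 scale. With the 75th percentile over probes well above background on all arrays, the fibrillar median was −1.0 and −1.19, the type IV median −0.24 and −0.92, the epidermal mean 3.43 and 2.79, and 5 genes were at least 2-fold higher on the Tm array. With quantile normalization the type IV median was −0.24 and −0.83, the epidermal mean 4.08 and 3.60, the fibrillar median −0.59 on the Tm array, and 14 genes were higher and 5 lower on the Tl array. With each array scaled to its median, the fibrillar median was −0.28 and −0.26, the type IV median 0.49 and 0.01, the latter reversed, and the epidermal mean 4.15 and 3.72, with 15 genes higher and 4 lower on the Tl array and 1 lower on the Tm array. Without scaling, the fibrillar median was 0.37 and −0.55, the former reversed, the type IV median 1.13 and −0.29, the epidermal mean 4.80 and 3.43, and Col3a1 on the Tl array 0.12, also reversed, with 19 genes higher and 1 lower on the Tl array and 4 lower on the Tm array. The median of all measured genes was then 1.38 and 0.65, compared to 0.21 and 0.39 in the values reported and 0.73 and 0.95 with scaling to the median.

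With normexp background correction the epidermal mean was 2.66 and 2.20, the fibrillar median −0.59 on the Tm array, and 4 genes were lower there. In the log2 table of the authors the fibrillar median was −1.14 and −1.24, the type IV median −0.89 on the Tl array, and the epidermal mean 3.17 and 3.63, and Col8a2 was −0.92 on the Tm array, as it was with the arrays exchanged. That exchange gave a type IV median of −0.55 and −0.03 and an epidermal mean of 3.16 and 3.63. Without a filter on dim probes the type IV median was 0.27 and −0.13, the fibrillar median −0.15 on the Tm array, and 11 genes were lower there. With bounds included the type IV median was 0.57 on the Tl array, and with the median over the probes of a gene Col4a6 was −0.29, which reverses it. At 5-fold, 5 genes were higher and 1 lower on the Tl array, and 3 were higher and 0 lower on the Tm array. The cause of these shifts was not tested. The epidermal mean was above 0 under every alternative run. Of the other values, 60 class values and counts and 254 single-gene values moved by less than their error or, for counts, by less than 1.5 times, and 326 single-gene values moved by more. Of these, 298 kept their sign, and 28 did not (values of Col1a2, Col4a1, Col4a2, Col5a3, Col8a1, Col8a2, Col9a2, Col15a1, Col27a1, and Col28a1). Precision is limited by the number of arrays.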

Other observations

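Marker lists not set beside a collagen class above had these values. Melanocyte markers had median log2 changes of 0.44 for the Tl array and 1.43 for the Tm array, as deposited, with 3 of 5 at least 2-fold higher and 1 lower, and 4 higher and 0 lower. Adipocyte markers had medians of 0.51 and 0.90, with 1 of 6 at least 2-fold higher and 1 lower on the Tl array, and 2 higher and 0 lower on the Tm array. For both lists, the shares over all genes were 22.6% higher and 20.7% lower on the Tl array, and 29.4% and 16.9% on the Tm array.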
